A study of Homo sapiens with 4 samples.

Results

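Glycolysis, glucose sensing and hypoxia genes were followed in MKN28, a human gastric adenocarcinoma cell line, as a set of 43 genes out of 23362 entries of the deposited table. The members were chosen by symbol from a written list, and all 43 were found, none of them repeated. Each of 4 groups had 1 library of poly(A) RNA. The list set no threshold on expression, but it was written with earlier results of these data known. All groups were stable lines made by retroviral infection and antibiotic selection, with a doxycycline-dependent (tet-on) construct. The control line carried luciferase (Luc). The WT line carried KIAA1324, the 3NQ line KIAA1324 with the asparagines of its putative N-glycosylation sites replaced by glutamine, and the ΔTM line KIAA1324 without its transmembrane domain. The labels and methods name no hypoxia or glucose treatment and do not say if the lines had doxycycline at RNA extraction, or if each was a pool or a clone. The comparisons asked what KIAA1324 and its glycosylation do to the transcriptome.

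Glycolysis turns glucose into pyruvate in the cytosol, and many tumor cells reduce that pyruvate to lactate and export it even when oxygen is present. The hypoxia-inducible factors (HIF) are transcription factors whose alpha subunits are marked for destruction by prolyl hydroxylases while oxygen is available. When the alpha subunits are stable, they raise the transcription of glucose transporters, glycolytic enzymes and genes such as VEGFA and CA9. A second sensor is the pair of MondoA or ChREBP with MLX, which reads glucose phosphates and turns on TXNIP and ARRDC4, arrestin-like proteins that limit glucose uptake.

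Levels are given as FPKM, fragments scaled for transcript length and for the mapped fragments of the library, a per-length scale on which genes can be compared with each other. Ratios are log2 ratios of FPKM plus 1, which understates the change of low genes, and a gene was called where a ratio reached 1.5-fold. With 1 library per group there was no replicate check, so no test was made and no p-value is given. KIAA1324 had 2.86 FPKM in Luc, 11185 in WT and 8197 in 3NQ but was listed at 0 in the ΔTM-labelled library, and each value of that library rests on its label. The epithelial markers KRT8, KRT18, KRT19, EPCAM and CDH1 lay between 233 and 8501 FPKM in every library. Of 3 leukocyte markers, PTPRC and CD3E did not exceed 0.115 FPKM, and CD68 lay between 4.44 and 5.84. Of 4 fibroblast markers, COL1A2, COL3A1 and DCN did not exceed 0.222 FPKM, while COL1A1 had 15.1, 15.3, 12.1 and 12.5 FPKM in Luc, WT, 3NQ and the ΔTM-labelled library. The 1 endothelial marker measured did not reach 1 FPKM. In bulk RNA, fewer cells that express a gene and less RNA per cell cannot be told apart.

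The 43 genes covered the whole range of the table. Of them, 34 reached 1 FPKM in at least 1 library and 9 did not. The 9 were HK2, LDHB, PDK3, TXNIP, ARRDC4, MLXIPL, HIF1A, CA9 and BNIP3, and none of them exceeded 0.627 FPKM in any library. The mean over the 4 libraries was at least 100 FPKM in 16 members, from 10 to 100 in 11 and from 1 to 10 in 7. The lowest mean among the 34 genes was 1.80 FPKM (EGLN3) and the highest 2621 (ENO1). A value near 0 in a table without counts can also be a failed estimate, since EIF3C, a translation factor gene that has a near-identical copy, was listed at 0 in every library.

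**Figure D1:**
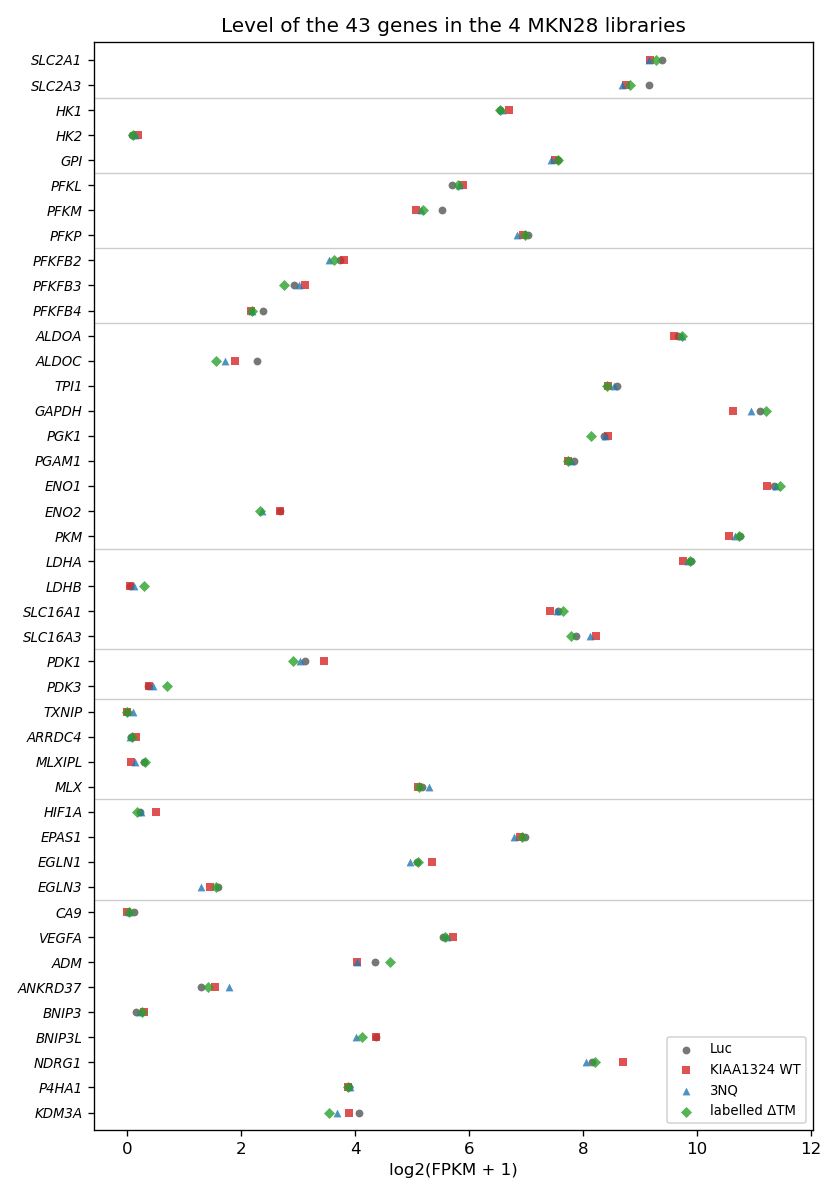
Level of each of the 43 genes as log2(FPKM + 1) on the x axis, with genes on the y axis grouped by role and 1 point for each of the 4 libraries. The 9 genes below 1 FPKM sit at the left edge in all 4 libraries, and the points of most other genes lie close together compared to the distance between genes.

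Sequence upstream of the start site is shown for a few members that were picked singly and do not represent the set. They are the abundant LDHA and its near-silent partner LDHB, ALDOC, which was the only member called against Luc, the glucose sensor ARRDC4, and the HIF targets BNIP3 and ANKRD37. Each line gives the 250 bases before a RefSeq start site on GRCh38.p14, read 5′ to 3′ on the strand of the gene. The windows are chr11:18394313-18394562 (plus strand) for LDHA, chr12:21657843-21658092 (minus) for LDHB, chr17:28576896-28577145 (minus) for ALDOC, chr15:97960453-97960702 (plus) for ARRDC4, chr10:131981924-131982173 (minus) for BNIP3 and chr4:185396591-185396840 (plus) for ANKRD37. Capitals mark ACGTG, a form of the core that HIF binds, on either strand, so that the palindrome CACGTG, the E-box core, holds it on both.
LDHA: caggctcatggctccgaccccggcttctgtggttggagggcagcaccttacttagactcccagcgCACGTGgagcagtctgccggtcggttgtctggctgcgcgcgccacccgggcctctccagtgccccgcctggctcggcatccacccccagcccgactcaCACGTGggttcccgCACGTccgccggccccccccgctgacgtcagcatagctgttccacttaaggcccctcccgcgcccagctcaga
LDHB: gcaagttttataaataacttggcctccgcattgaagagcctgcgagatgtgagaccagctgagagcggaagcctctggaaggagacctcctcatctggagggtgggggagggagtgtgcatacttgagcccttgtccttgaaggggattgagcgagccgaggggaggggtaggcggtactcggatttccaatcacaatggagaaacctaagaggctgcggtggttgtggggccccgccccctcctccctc
ALDOC: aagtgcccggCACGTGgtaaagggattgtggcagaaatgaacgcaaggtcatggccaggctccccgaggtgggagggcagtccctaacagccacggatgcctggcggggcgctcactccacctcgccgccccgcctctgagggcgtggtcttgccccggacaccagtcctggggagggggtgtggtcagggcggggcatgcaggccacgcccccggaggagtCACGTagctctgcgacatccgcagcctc
ARRDC4: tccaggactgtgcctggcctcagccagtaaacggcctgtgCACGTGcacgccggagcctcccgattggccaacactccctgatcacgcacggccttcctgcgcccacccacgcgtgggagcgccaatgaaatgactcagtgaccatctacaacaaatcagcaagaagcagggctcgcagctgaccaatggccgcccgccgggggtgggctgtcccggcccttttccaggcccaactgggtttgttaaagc
BNIP3: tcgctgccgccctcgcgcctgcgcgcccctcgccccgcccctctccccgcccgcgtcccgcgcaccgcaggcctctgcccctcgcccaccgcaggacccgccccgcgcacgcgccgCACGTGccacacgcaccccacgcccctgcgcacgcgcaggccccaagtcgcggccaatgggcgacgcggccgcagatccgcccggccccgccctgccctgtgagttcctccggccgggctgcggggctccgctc
ANKRD37: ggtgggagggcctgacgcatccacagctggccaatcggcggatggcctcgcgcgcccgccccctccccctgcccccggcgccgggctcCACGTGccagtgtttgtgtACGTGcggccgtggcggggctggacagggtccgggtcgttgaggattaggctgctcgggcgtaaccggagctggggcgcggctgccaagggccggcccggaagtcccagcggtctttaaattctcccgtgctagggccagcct

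Counted on both strands, ACGTG stood 5 times in the LDHA window, 3 times each in those of ALDOC and ANKRD37, 2 times each in those of ARRDC4 and BNIP3, and not in that of LDHB. LDHA has 2 windows, and the one printed was chosen because it holds ACGTG. The other LDHA window held none, and neither did those of the HIF targets ADM and KDM3A, which are not shown. RefSeq windows were matched for 37 of the 43 members, 66 windows in all. None was matched for SLC2A3, SLC16A1, PFKFB2, VEGFA, BNIP3L or NDRG1. Of the 66 windows, 26 (39.4%) held ACGTG on either strand, compared to 18.5% of all 35116 windows in the table. CACGTG stood in 10 of the 66 windows (15.2%) and in 6.34% of all windows. Both motifs hold the pair CG, and the windows compared were not matched for base composition. The part of composition in these shares was not tested. The carbohydrate response element that MondoA and ChREBP bind was searched only as a pair of exact CACGTG cores at a fixed distance. This was in 0 of the 66 windows and in 1 of all 35116 (0.00285%). So strict a search cannot show whether a member holds the element in another form. Among the 9 members below 1 FPKM in every library, 7 of 12 windows (58.3%) held ACGTG, and among the 28 others 19 of 54 (35.2%). These shares count windows and not genes. HK1 and PFKM gave 7 windows each to the second share, and none of those of HK1 held ACGTG. The 2 shares therefore cannot be read as shares of genes. Windows of 1 gene can overlap and share bases, and a match describes the letters and not the binding of a factor.

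Glucose uptake in these cells was represented by 2 abundant transporters, and both were highest in Luc. SLC2A1, which encodes the basal transporter GLUT1, had 669, 579, 570 and 620 FPKM in Luc, WT, 3NQ and the ΔTM-labelled library. SLC2A3, which encodes the high-affinity GLUT3, had 571, 433, 411 and 453 FPKM in the same order. Relative to Luc, SLC2A3 had log2 ratios of −0.40, −0.47 and −0.33 for WT, 3NQ and the ΔTM-labelled library, none of which reached 1.5-fold. The 3 ratios share the Luc library. On the level scale, GLUT1 exceeded GLUT3 1.17-fold in Luc and 1.34-fold, 1.39-fold and 1.37-fold in WT, 3NQ and the ΔTM-labelled library.

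Of the hexokinase members, HK1, the widely expressed form, was abundant and HK2 near 0. HK1 had 92.6, 103, 94.3 and 92.1 FPKM in Luc, WT, 3NQ and the ΔTM-labelled library. HK2, the hexokinase that many tumors induce, was listed at 0.0666, 0.148, 0.0994 and 0.0794 FPKM. GPI, which isomerizes glucose-6-phosphate, differed by at most 1.09-fold on the level scale, between 173 and 189 FPKM.

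Among the subunits of phosphofructokinase-1, the committed step of glycolysis, the platelet type had the most transcript. PFKP had 130, 122, 113 and 125 FPKM in Luc, WT, 3NQ and the ΔTM-labelled library, which was 57.4%, 57.1%, 55.8% and 58.0% of the 3 subunits. The muscle-type subunit PFKM was highest in Luc, at 45.2 FPKM, against 32.7 in WT, 34.6 in 3NQ and 35.7 in the ΔTM-labelled library. The liver-type subunit PFKL was lowest in Luc, at 51.1 FPKM, against 58.8, 55.3 and 55.0. Relative to Luc, the log2 ratio of PFKM was −0.45, −0.37 and −0.33 and that of PFKL 0.20, 0.11 and 0.10. No subunit reached 1.5-fold. The PFKFB enzymes, which set the level of the activator fructose-2,6-bisphosphate, were low, and PFKFB2 led them with 12.4, 13.0, 10.6 and 11.4 FPKM, followed by PFKFB3 with 5.73 to 7.75 and PFKFB4 with 3.54 to 4.26.

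The enzymes of lower glycolysis were among the most abundant transcripts of the cell. ENO1 (enolase) ranked 10 by mean FPKM among the 23362 entries, GAPDH 19, PKM (pyruvate kinase) 26, LDHA 59 and ALDOA (aldolase) 69. Together, 15 genes from hexokinase to pyruvate kinase summed to 8798, 7678, 8513 and 9045 FPKM in Luc, WT, 3NQ and the ΔTM-labelled library. That sum was 1.53%, 1.36%, 1.46% and 1.61% of all FPKM. WT was the lowest of the 4 libraries and the ΔTM-labelled library the highest. These abundant enzymes have processed pseudogenes, so that reads may have been divided between copies by the multi-read correction of the authors.

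GAPDH differed most between libraries among the abundant enzymes. It had 2198, 1591, 1981 and 2356 FPKM in Luc, WT, 3NQ and the ΔTM-labelled library. ENO1 had 2612, 2395, 2669 and 2807 FPKM, and PKM had 1719, 1511, 1615 and 1696. All 3 genes were lowest in WT. The log2 ratio of GAPDH was −0.47 in WT against Luc and −0.57 in WT against the ΔTM-labelled library, just short of 1.5-fold (0.58 on the log2 scale). Rescaled by median ratio or upper quartile, the latter was −0.62 under both and passed the threshold.

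Abundant genes in general leaned the same way in WT. Of the 10 members with a mean of at least 300 FPKM, 8 were below Luc in WT, with a median log2 ratio of −0.15. Of all 252 entries at that level, 177 were below Luc in WT, and their median was −0.076. The part of that lean in the value of GAPDH was not tested. ALDOA, TPI1, PGK1 and PGAM1 stayed within 1.22-fold across the 4 libraries on the level scale. PGK1, an ATP-yielding kinase, was lowest in the ΔTM-labelled library, at 283 FPKM against 328 to 345 in the others.

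ALDOC and ENO2, minor isoforms of aldolase and enolase, were lower in 3NQ and the ΔTM-labelled library than in Luc. ALDOC, the brain-type aldolase, had 3.89, 2.72, 2.31 and 1.97 FPKM in Luc, WT, 3NQ and the ΔTM-labelled library. Its log2 ratio to Luc was −0.40, −0.57 and −0.72, and the last of these passed 1.5-fold. ALDOC was the only member called against Luc in any library, 1 of 34 lower in the ΔTM-labelled library, where 1.57% of the 11769 entries tested were called lower. Of those entries, 97 had a lower ratio than ALDOC there. The call rests on a low level and was lost with a pseudocount of 5, where the ratio was −0.35, and against the mean of the other 3 libraries, where it was −0.42. The span of ALDOC overlaps another listed entry, and so do those of 15 members in all, HIF1A and CA9 included. ENO2, the neuronal enolase, had 5.43, 5.46, 4.18 and 4.02 FPKM, with the lower values in 3NQ and the ΔTM-labelled library. ENO3, the muscle enolase and no member of the list, had 3.05, 2.43, 4.25 and 3.14 FPKM. It was lower than Luc in neither 3NQ nor the ΔTM-labelled library.

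Of the lactate dehydrogenase members, LDHA was abundant and LDHB near 0. LDHA had 949, 857, 916 and 935 FPKM in Luc, WT, 3NQ and the ΔTM-labelled library. LDHB, the subunit that favors the conversion of lactate to pyruvate, was listed at 0.0402, 0.0428, 0.0881 and 0.227 FPKM. No ratio is given for LDHB, since both sides of it would lie near 0.

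The lactate transporters differed in their balance. SLC16A3, which encodes the exporter MCT4, had 235, 298, 278 and 219 FPKM in Luc, WT, 3NQ and the ΔTM-labelled library. SLC16A1, which encodes MCT1, had 187, 171, 185 and 199 FPKM. SLC16A3 was higher in WT and 3NQ than in Luc and the ΔTM-labelled library, and SLC16A1 was lowest in WT. The level of SLC16A3 over that of SLC16A1 was 1.26 in Luc and 1.75 in WT, with 3NQ between them and the ΔTM-labelled library below Luc. Neither gene reached 1.5-fold in any comparison.

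PDK1, a HIF target and a kinase that inhibits pyruvate dehydrogenase and so the making of acetyl-CoA from pyruvate, had 7.72, 10.01, 7.25 and 6.52 FPKM in Luc, WT, 3NQ and the ΔTM-labelled library. WT was the highest of the 4 libraries, with a log2 ratio of 0.34 to Luc and 0.55 to the ΔTM-labelled library. With a pseudocount of 0.1, the latter was 0.61 and passed the threshold. PDK3 was listed at 0.291, 0.304, 0.370 and 0.627 FPKM, highest in the ΔTM-labelled library.

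Of the 4 glucose sensing genes, MLX alone was expressed above 1 FPKM. TXNIP was listed at 0 in Luc, WT and the ΔTM-labelled library and at 0.0760 FPKM in 3NQ. ARRDC4 was listed at 0.0553, 0.114, 0.0355 and 0.0584 FPKM, and MLXIPL, which encodes ChREBP, at 0.233, 0.0558, 0.110 and 0.245. All 3 genes were near 0 in every library, Luc included, so that no ratio between libraries is given. The partner MLX was expressed, with 35.0, 33.3, 38.5 and 34.1 FPKM, and so was MLXIP, which encodes MondoA and is no member of the list, with 16.5, 20.6, 17.9 and 15.3 FPKM. Of 5 related genes, MLXIP and 4 further alpha-arrestins, 4 reached 1 FPKM and none was called against Luc. Among 8 lipogenic genes that respond to carbohydrate, 6 reached 1 FPKM. SCD (log2 ratio −0.72) and ELOVL6 (−0.59) were called lower in 3NQ, where 2.57% of all entries were. None of the 6 was called against Luc in WT or the ΔTM-labelled library. With a pseudocount of 5, ELOVL6 was not called in 3NQ (−0.30). After rescaling, ELOVL6 lost its call in 3NQ, at −0.55 and −0.56, and passed the threshold upward in the ΔTM-labelled library, at 0.60 by either method.

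The HIF alpha subunit of these cells was EPAS1 by transcript level. EPAS1, which encodes HIF-2 alpha, had 125, 118, 110 and 120 FPKM in Luc, WT, 3NQ and the ΔTM-labelled library. HIF1A was listed at 0.170, 0.425, 0.194 and 0.129 FPKM. HIF1A was low in all 4 libraries although its protein is broadly expressed in human cells, and its span overlaps another listed entry. HIF-2 alpha is controlled largely as a protein, which these data do not measure.

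No prolyl hydroxylase reached 1.5-fold against Luc. EGLN1, the main oxygen sensor, had 32.8, 39.6, 30.3 and 33.6 FPKM in Luc, WT, 3NQ and the ΔTM-labelled library, and was highest in WT. EGLN3, a HIF-induced hydroxylase, was low, at 2.02, 1.74, 1.47 and 1.97 FPKM. EGLN2, the most abundant of the family and no member of the list, had 45.5, 52.2, 39.8 and 39.3 FPKM. All 3 were lower in 3NQ than in Luc and WT. Of 12 other regulators of the HIF pathway, among them ARNT, VHL and HIF1AN, 10 reached 1 FPKM and none was called against Luc in any library.

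Among the HIF targets, NDRG1 was the only one called in any comparison. NDRG1 (ENSG00000104419), a gene induced by stress and differentiation, lies on chromosome 8 of GRCh37 from 134249414 to 134314265. It had 283, 416, 264 and 294 FPKM in Luc, WT, 3NQ and the ΔTM-labelled library. WT lay above the other 3 libraries. The log2 ratio in WT was 0.55 to Luc, just under the threshold, 0.65 to 3NQ, past it, and 0.50 to the ΔTM-labelled library. NDRG1 was the only member called in a comparison without Luc, 1 of 34 higher in WT than in 3NQ. There, 2.89% of all entries were called higher, so 1 call in 34 is near that share. Of the 11769 entries, 247 had a higher ratio than NDRG1 in that comparison.

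ADM and KDM3A differed between libraries in other ways. ADM, which encodes the vasodilator adrenomedullin, had 19.5, 15.4, 15.4 and 23.4 FPKM in Luc, WT, 3NQ and the ΔTM-labelled library. WT and 3NQ were thus lower in ADM than Luc and the ΔTM-labelled library, and a relation to the KIAA1324 level was not tested. The log2 ratio to the ΔTM-labelled library was −0.57 in both WT and 3NQ, short of the threshold. After median-ratio rescaling, ADM gave −0.62 and −0.59, and after upper-quartile rescaling −0.63 and −0.60, all past it. KDM3A, a histone demethylase, had 15.7, 13.9, 11.9 and 10.7 FPKM, highest in Luc and lowest in the ΔTM-labelled library (log2 ratio to Luc −0.52).

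None of the remaining HIF targets was called in any comparison. VEGFA, the angiogenic growth factor, had 45.8 to 51.8 FPKM, and P4HA1, a collagen prolyl hydroxylase, differed by at most 1.02-fold, between 13.7 and 14.0 FPKM. BNIP3L, a mitophagy receptor, had 19.8, 19.8, 15.3 and 16.5 FPKM, while its relative BNIP3 was listed at 0.115, 0.237, 0.177 and 0.196. CA9, the carbonic anhydrase used as a hypoxia marker, was listed at 0.0882, 0, 0.0225 and 0.0255 FPKM. ANKRD37 had 1.45, 1.90, 2.44 and 1.67 FPKM, highest in 3NQ, where its log2 ratio to Luc was 0.49, and 0.72 with a pseudocount of 0.1. The windows of BNIP3 and ANKRD37 printed above both hold CACGTG, yet ANKRD37 was measured above 1 FPKM and BNIP3 was not.

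Compared to Luc, few members differed by 1.5-fold. In WT, 0 of the 34 genes were called higher and 0 lower, against 3.36% and 3.34% of all 11769 entries (6.7% in either direction). In 3NQ, 0 were called higher and 0 lower, against 1.77% and 2.57% (4.34%). In the ΔTM-labelled library, 0 were called higher and ALDOC alone lower, against 1.54% and 1.57% (3.11%). Between WT and 3NQ, NDRG1 alone was called higher and 0 lower, against 2.89% and 1.58% (4.47%). Between WT and the ΔTM-labelled library 0 were called, against 4.25% higher and 2.91% lower (7.16%; 59.3% of these calls were higher, and 47.6% or 47.1% after median-ratio or upper-quartile rescaling), and between 3NQ and that library 0, against 1.46% and 1.88% (3.34%). Over all 6 comparisons, 32 of the 34 genes were never called, and 29 had less than 1.5-fold between their highest and lowest FPKM.

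The members had a median log2 ratio of −0.073 for WT, −0.094 for 3NQ and −0.046 for the ΔTM-labelled library. Over all entries tested it was −0.0049, −0.038 and −0.060. After rescaling, the last member median was above 0, at 0.017 by median ratio and 0.011 by upper quartile. In WT, 21 of the 34 genes were below Luc, and 23 were in each of 3NQ and the ΔTM-labelled library. Of all 11769 entries, 5988, 6706 and 7412 were below Luc. The 3 comparisons share the Luc library.

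**Figure D2:**
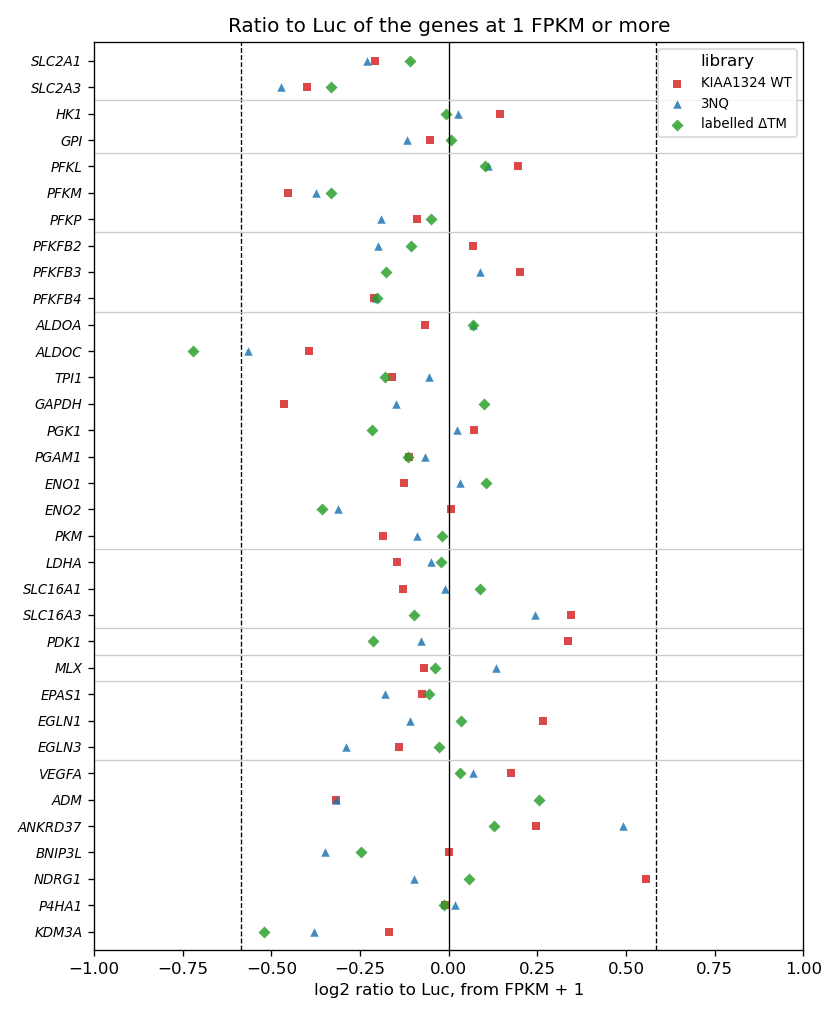
Log2 ratio to Luc (x axis, from FPKM + 1) of the 34 genes that reached 1 FPKM in a library (y axis, by role), 1 point for each of WT, 3NQ and the ΔTM-labelled library, with dashed lines at 1.5-fold. ALDOC in the ΔTM-labelled library, at −0.72, is the only point past a dashed line.

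**Figure D3:**
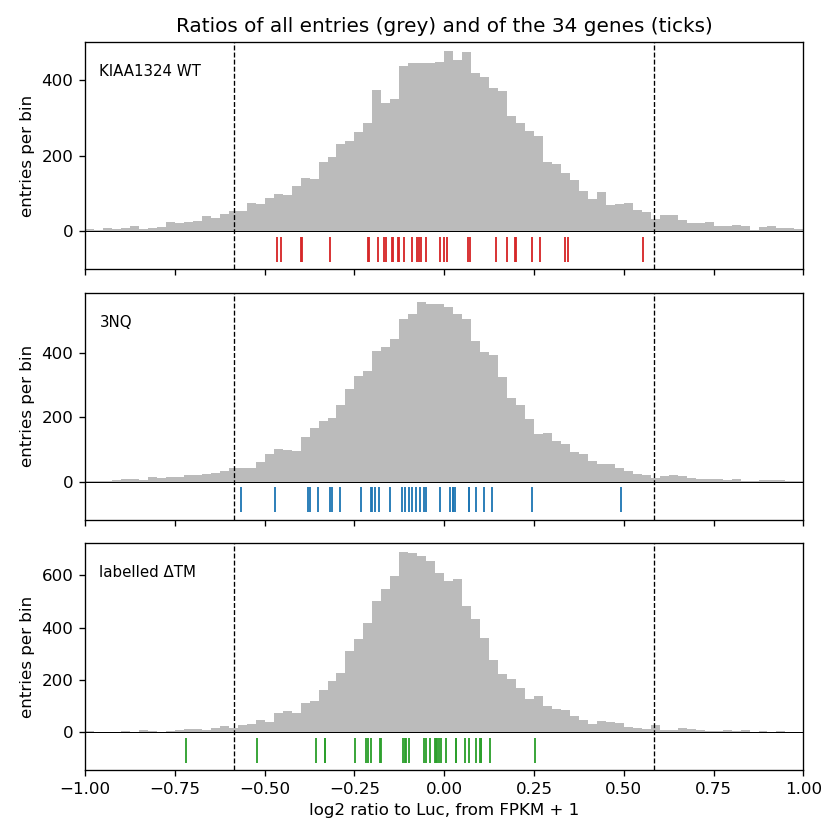
Number of entries per bin of log2 ratio to Luc (grey, the 11769 entries tested, those beyond 1 in either direction not drawn) for WT, 3NQ and the ΔTM-labelled library, with the 34 genes as ticks below and dashed lines at 1.5-fold. Most ticks lie within the bulk of the grey distributions. ALDOC at −0.72 in the ΔTM-labelled library is the farthest and lies in the tail, with 97 entries below it.

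**Figure D4:**
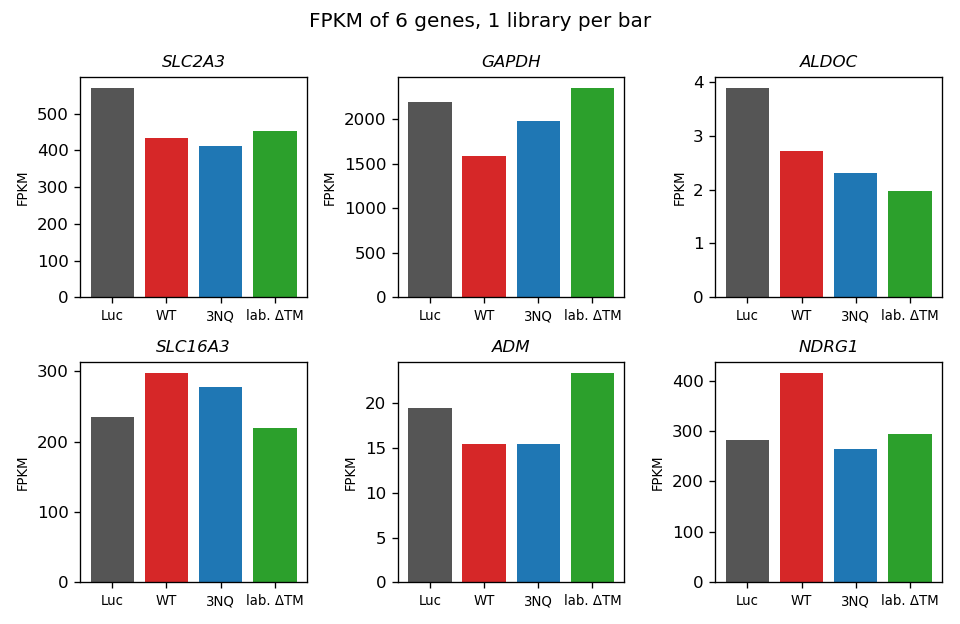
FPKM (y axis, from 0) of SLC2A3, GAPDH, ALDOC, SLC16A3, ADM and NDRG1 in Luc, WT, 3NQ and the ΔTM-labelled library (lab. ΔTM), 1 library per bar and no error bars because there are no replicates. SLC2A3 and ALDOC are highest in Luc, GAPDH is lowest in WT, and NDRG1 is highest in WT at 416 FPKM.

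The surrounding pathways were described with lists of known genes. Of 33 further glycolysis isoforms and sugar transporters, 14 reached 1 FPKM. None of these was called against Luc in WT or the ΔTM-labelled library. Between WT and 3NQ, ENO3 was called lower in WT (−0.61), where 1.58% of all entries were. Against Luc, 2 calls were made in 3NQ. SLC2A12 (log2 ratio −0.84) and SLC2A13 (−0.60) were called lower in 3NQ, where 2.57% of all entries were. SLC2A13 was not called after rescaling (−0.56 by median ratio). With a pseudocount of 5, SLC2A12 and SLC2A13 were not called (−0.36 and −0.34), and with one of 0.1 SLC2A12 was also called lower in WT (−0.64). The pentose phosphate pathway, which branches off glycolysis to make NADPH, had 8 of 9 genes above 1 FPKM and none called against Luc. The citric acid cycle had all 18 genes above 1 FPKM and none called, and the gluconeogenesis list had 3 of 7 and none called.

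The step between glycolysis and the citric acid cycle held 1 call. Of 12 genes for pyruvate entry into mitochondria, 11 reached 1 FPKM, and MPC1 was called higher in WT, where 3.36% of all entries were. MPC1, a subunit of the mitochondrial pyruvate carrier, had 11.7, 19.3, 16.5 and 15.0 FPKM in Luc, WT, 3NQ and the ΔTM-labelled library, and was lowest in Luc. Its log2 ratio was 0.68, 0.46 and 0.34, and the WT call was lost at a pseudocount of 5 (0.54) and against the mean of the other 3 libraries (0.40). MPC2, the partner subunit, had 19.1 to 20.5 FPKM. PDK2, which is no member of the list, had 12.1 to 16.4 FPKM and was the most abundant of the 4 pyruvate dehydrogenase kinases in every library.

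Of 41 further hypoxia targets, 31 reached 1 FPKM. In WT, P4HA2 (log2 ratio 0.71) and TMEM45A (0.61) were called higher, where 3.36% of all entries were. In 3NQ, TMEM45A (0.65) was called higher and DDIT4 (−0.65) lower, against 1.77% and 2.57% of all entries. In the ΔTM-labelled library, DDIT4 (−0.77) and SLC6A8 (−0.60) were called lower, where 1.57% of all entries were. Between WT and the ΔTM-labelled library, 4 of the 31 were called higher and 0 lower, against 4.25% and 2.91%. Between WT and 3NQ, 1 was called higher and 0 lower, against 2.89% and 1.58%. DDIT4, a stress-induced inhibitor of mTORC1, had 17.6, 19.8, 10.8 and 9.92 FPKM in Luc, WT, 3NQ and the ΔTM-labelled library. Luc and WT were thus high, and 3NQ and the ΔTM-labelled library low. P4HA2, a collagen prolyl hydroxylase and the partner isoform of P4HA1, had 20.0, 33.2, 24.7 and 21.0 FPKM, so that it was highest in WT. Its call in WT was lost against the mean of the other 3 libraries (0.58, just short). TMEM45A lost its calls in WT and 3NQ with a pseudocount of 5 (0.46 and 0.50) and against the mean of the other 3 libraries (0.25 and 0.32). DDIT4 lost its call in 3NQ under the same settings (−0.51 and −0.50), and against that mean it passed the threshold upward in WT (0.59). SLC6A8 lost its call with a pseudocount of 5 (−0.41) and on rescaling (−0.54 by median ratio). Their median log2 ratios to Luc were 0.056, −0.050 and −0.12 for WT, 3NQ and the ΔTM-labelled library, over 31 genes.

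Markers of the epithelial state were given beside these values because the most abundant of them differed as well. KRT8 had 8501, 4510, 6362 and 6912 FPKM in Luc, WT, 3NQ and the ΔTM-labelled library, and KRT18 had 3684, 2115, 2673 and 3610. Both were called lower in WT, with log2 ratios of −0.91 and −0.80, where 3.34% of all entries were called lower. Of the 5 epithelial markers, all were below Luc in all 3 other libraries. In the ΔTM-labelled library, however, KRT18 (log2 ratio −0.029) and KRT19 (−0.0013) were nearly level with Luc. The part of the 5 markers in the ratios of the members was not tested.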

How the data were processed

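RNA sequencing was performed by the authors on 1 library for each of 4 MKN28 lines. Per the labels and methods, poly(A) RNA was prepared with a TruSeq kit, and the filtered reads were mapped to GRCh37 with Tophat. Gene levels were estimated with Cufflinks (version 2.1.1) on Ensembl genes, with non-coding regions masked and with multi-read and fragment bias correction. The deposited values are FPKM, already scaled by the authors for library size and transcript length. The table holds no counts, so the depth of each library is unknown and no interval could be given. The FPKM summed to between 560540 and 585104 per library, and 11297 to 11406 of 23362 entries reached 1 FPKM.

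For the 11769 entries with at least 1 FPKM in a library, log2 ratios were taken after adding 1 to each value (pandas 2.3.3, numpy 2.4.6, under Python 3.11.15), and figures drawn in matplotlib 3.10.9. A ratio of 1.5-fold was a call, and the share of all entries called is given beside it. The code that makes the calls was tested on simulated data. A repeated symbol took the entry with the highest mean FPKM. With 1 library per group, no test was made.

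The genes described singly were all members, with every library's FPKM for those past the threshold, the glucose sensors, HIF1A, EPAS1 and the highest gene of each role. Of the related lists, they were the genes called against Luc and MLXIP. PDK2, MPC2 and other singled-out genes were named after their values were seen. The members and lists were chosen with earlier results of these data known. Promoter windows came from RefSeq (GRCh38.p14), whereas gene coordinates are those of the deposited table on GRCh37.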

Additional observations from a re-analysis of the deposited data

How the results depend on the processing

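The alternatives were a pseudocount of 0.1 or 5, all entries kept, at least 5 FPKM, median-ratio or upper-quartile rescaling, summed repeated symbols, a 2-fold threshold, and the mean of the other 3 libraries as the control. No paired analysis was possible because each group has 1 library, and for the same reason no library could be left out. Of 2031 recomputed ratios of single genes, 1977 kept their status, most of them ratios not called under either setting. Of the others, 37 lost a call and 17 gained one, and none that was called changed direction. The 2-fold threshold removed 15 calls, which were all the calls at 1.5-fold among these ratios. All 27 recomputed medians of the members moved by less than 0.1. Of 102 recomputed counts of called members, 88 stayed within 1.5 times, most of them at 0. With a pseudocount of 0.1, 3NQ against Luc had 1 member higher and 1 lower, WT against the ΔTM-labelled library 1 higher and 1 lower, and 3NQ against that library 1 lower, all from 0. The ΔTM-labelled library against Luc went from 1 lower to 0 with a pseudocount of 5, at least 5 FPKM, a 2-fold threshold or the mean of the other libraries as control, and WT against 3NQ from 1 higher to 0 with a 2-fold threshold. Under both rescalings, WT against the ΔTM-labelled library had 2 lower and 3NQ against it 1 lower. Among all entries, the share of calls against Luc that were higher in the ΔTM-labelled library moved from 49.5% to 60.5% after median-ratio and 59.8% after upper-quartile rescaling, and in WT against that library from 59.3% to 47.6% and 47.1%. Other than the 2-fold and low-value settings, which act by construction, the cause was not tested.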
